A study of Schmidtea mediterranea with 24 samples.

Results

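The data described here are the mmp-1- cells of the planarian flatworm *Schmidtea mediterranea*, sorted from tail fragments at 48 h after amputation and from intact worms. They make up 6 of the 24 samples of the series, 3 libraries at 48 h and 3 from intact worms, and were chosen by their labels, without use of any measured value. The comparison shows how the transcripts of the sorted cells differed between regenerating tails and uncut animals.

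All 6 libraries are from wildtype animals starved for 11 days, and each biological replicate pooled 100 worms. Worms were dissociated and fixed in ACME, a solution that separates and fixes cells in 1 step. The RNA of mmp-1 was then stained by hybridization chain reaction (HCR), which builds a fluorescent signal on probes bound to a chosen transcript. Flow cytometry separated cells with the signal (mmp-1+) from cells without it (mmp-1-), and 1000 cells of each kind were collected per library for polyA RNA sequencing. The mmp-1- population is thus every remaining cell type that the sort passed, not 1 type, and its libraries pool many worms. The intact libraries came from whole worms and the 48 h libraries from tail fragments only, so the part of the body sampled and the time after injury cannot be told apart in this comparison. In such pooled material, fewer cells of a type and less RNA per cell cannot be told apart either. The rest of the series used below consists of the mmp-1- cells of 6 h tails, the mmp-1+ cells of the same 3 conditions, and 4 tissue sections.

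Planarians rebuild missing body parts from neoblasts, dividing stem cells spread through the body tissue. A cut is followed by wound-induced transcription in many differentiated cells, by neoblast division, and later by remodelling of the old tissue to fit the new proportions. Matrix metalloproteinases, the family that the name mmp-1 stands for, are enzymes that cut proteins of the extracellular matrix.

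Genes are given by the identifiers of the deposited table, which does not pair them with names, so no function is stated for any of them and mmp-1 itself could not be looked up. The sort was checked in another way, with the 20 genes that were highest in mmp-1+ over mmp-1- cells at 6 h, a time that the comparison does not use. Their summed level was 666.9, 3454 and 2240 CPM (counts scaled to a library of 1000000) in the 48 h libraries and 550.4, 5376 and 686.3 CPM in the intact libraries, against 62280 to 153200 CPM in the 6 mmp-1+ libraries of the same conditions. The smallest edgeR adjusted p of the 20 for 48 h against intact mmp-1- cells was 0.0963, and in 19 of them the libraries of the conditions overlapped. Overlap was also usual over all tested genes, where 14.5% had every 48 h library above every intact one and 15.1% had every one below. The sums varied widely inside each condition, so these libraries cannot show that the sort was equal in both. Levels are raw counts scaled to a common library size (TMM) and are not divided by gene length, so they are compared between libraries and not between genes.

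Counts assigned to genes were 55497823 to 60400795 in the 48 h libraries and 60119574 to 63524266 in the intact libraries. The 48 h libraries were more like one another than the intact ones. The median coefficient of variation of a gene was 6.87% at 48 h and 9.62% in intact worms. A principal component analysis of the 6 libraries put 64.8% of the variance on its first axis, which separated the conditions, at -26.83 to -20.02 for 48 h and 20.56 to 27.75 for intact worms. The second axis took 14.3% and set intact replicate 2, at 20.34, apart from intact replicate 3, at -18.07.

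At 48 h, 2433 genes were higher and 3095 lower than in intact worms, at an adjusted p under 0.05 in edgeR's quasi-likelihood test with Benjamini-Hochberg adjustment. These 5528 genes are 17.6% of the 31435 tested, with 7.74% called higher and 9.85% called lower. Of the called genes, 5265 had no overlap between the 3 libraries at 48 h and the 3 from intact worms, and 263 had some. Over all tested genes, 14.5% had every 48 h library above every intact one, and 15.1% had every 48 h library below. Most called differences were small, with a median log2 fold change of 0.51 among the higher and -0.70 among the lower genes. When the model was fitted to these 6 libraries alone, it called 1436 genes higher.

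Large differences were mostly decreases. A change of at least 2-fold was called for 369 genes upward (1.17% of those tested) and 1003 downward (3.19%). At 4-fold or more there were 82 higher genes (0.261%) and 389 lower ones (1.24%). At 16-fold or more there were 19 higher genes (0.0604%) and 139 lower ones (0.442%). The 19 most increased genes had a median level of 5.77 CPM at 48 h and 0.162 CPM in intact worms. Of these 19, 7 had a mean of at least 10 CPM at 48 h and 6 a mean under 1 CPM. The 139 most decreased genes had a median of 0.0681 CPM at 48 h and 3.18 CPM in intact worms. In intact worms 46 of them had a mean of at least 10 CPM and 41 a mean under 1 CPM. These medians describe genes chosen by the same difference.

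The split between higher and lower calls varied with abundance. Among 8477 genes with a mean of 10 to 100 CPM over the 6 libraries, 1321 were called higher and 1220 lower. Among 1055 genes at 100 to 1000 CPM, 170 were called higher and 100 lower. Among 11659 genes at 1 to 10 CPM, 715 were called higher and 1370 lower. Among 10189 genes under 1 CPM, 218 were called higher and 401 lower, of which 173 and 353 had changed by at least 2-fold. Many of the 2-fold changes were thus in genes of low level. Among 55 genes at 1000 CPM or more, 9 were called higher and 4 lower. The genes called higher together made up 13.8%, 13.1% and 13.9% of the scaled counts in the 48 h libraries, against 9.22%, 8.84% and 9.15% in the intact libraries. The genes called lower made up 6.14%, 6.28% and 6.21% at 48 h, against 10.1%, 10.2% and 9.44% in intact worms. Both sets were chosen by these same libraries, so the direction of these shares was set by the choice and only their size is described.

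**Figure D1:**
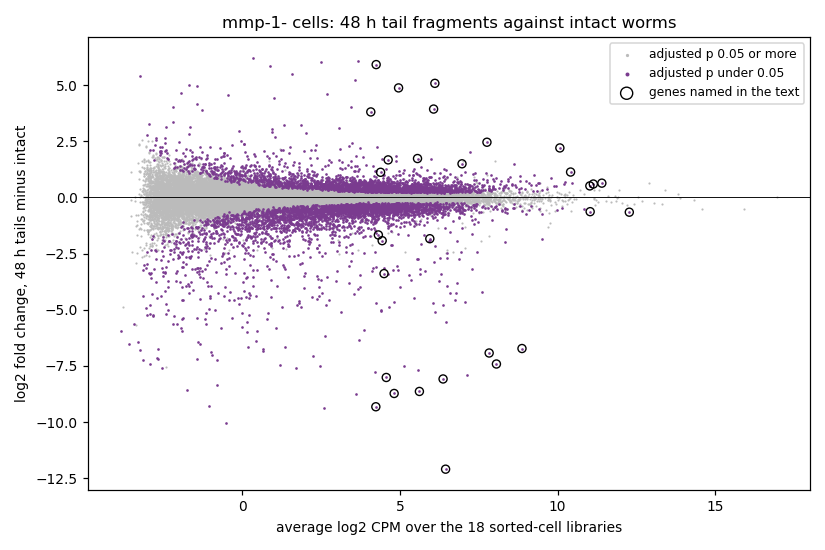
Log2 fold change of 48 h over intact mmp-1- cells (vertical axis) against average log2 CPM (horizontal axis) for each tested gene, with called genes coloured and the 30 genes named by rule circled. The decreases of 16-fold and more (139 genes) outnumber the increases of that size (19 genes).

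The genes named below were picked by a rule with 3 parts, and all had libraries that did not overlap. Of the 30 genes, 15 were higher and 15 lower at 48 h. The rule took the 6 highest and 6 lowest fold changes, the 5 largest increases and decreases in mean CPM, and the 4 smallest p-values in each direction among those left.

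Several transcripts that were scarce in intact worms were far more abundant at 48 h. SMED30028552 had 42.8, 72.4 and 33.3 CPM at 48 h, against 0.855, 0.702 and 0.886 CPM in intact worms. Every intact library was below 1 CPM, and the lowest 48 h library was far above them. The log2 fold change was 5.92 (adjusted p 2.08e-09 in edgeR, SE 0.36). SMED30003676 had 152, 196 and 128 CPM at 48 h, against 4.02, 4.76 and 5.29 CPM in intact worms, a log2 fold change of 5.08 (adjusted p 4.72e-09 in edgeR, SE 0.33). SMED30002813 had 78.4, 72.4 and 56.5 CPM at 48 h, against 1.90, 2.49 and 2.66 CPM in intact worms. In both of these genes the libraries of each condition lay close together compared with the gap between conditions. SMED30030464 had 210, 152 and 123 CPM at 48 h, against 16.8, 8.43 and 6.40 CPM in intact worms, with a log2 fold change of 3.94 (adjusted p 5.35e-07 in edgeR, SE 0.38). SMED30010415 had 400, 402 and 333 CPM at 48 h, against 61.3, 68.5 and 76.2 CPM in intact worms, and rose by 2.46 on the log2 scale.

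SMED30022580 stood highest at 6 h. It had 17.8, 12.5 and 12.6 CPM at 48 h and 0.475, 1.57 and 1.03 CPM in intact worms, a log2 fold change of 3.81 (adjusted p 2.06e-07 in edgeR, SE 0.34). In 6 h tails it stood at 41.5, 37.0 and 32.5 CPM, above all the 48 h libraries. In the order intact, 6 h and 48 h, the mean of SMED30028552 was 0.815, 11.2 and 49.5 CPM, that of SMED30003676 was 4.69, 54.6 and 159 CPM, and that of SMED30002813 was 2.35, 17.4 and 69.1 CPM. These 3 genes thus stood highest at 48 h, with the 6 h level between the others.

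A further 5 genes were named for the size of their increase in CPM, which favours abundant and long transcripts. SMED30005835 had 1883 ± 379 CPM at 48 h and 408 ± 42.2 CPM in intact worms (SD, n = 3 each), with a log2 fold change of 2.21 (adjusted p 1.16e-08 in edgeR, SE 0.16). SMED30003809 had 1868 ± 177 CPM at 48 h and 851 ± 26.7 CPM in intact worms (SD, n = 3 each), a rise of 1.13 on the log2 scale. SMED30019959 had a mean of 3250 CPM at 48 h and 2087 CPM in intact worms, SMED30034623 had 2534 CPM at 48 h and 1672 CPM in intact worms, and SMED30010375 had 2558 CPM at 48 h and 1789 CPM in intact worms. Their log2 fold changes were 0.64, 0.60 and 0.52 in the order given. SMED30010375 was no longer called by edgeR without 48 h replicate 1 (adjusted p 0.0628) or without intact replicate 2 (adjusted p 0.0575).

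Among the genes not already picked by fold change or CPM, those with the smallest p-values showed moderate increases with little spread. SMED30035424 had 223, 188 and 226 CPM at 48 h, against 73.6, 73.9 and 77.3 CPM in intact worms, with a log2 fold change of 1.501 (adjusted p 1.80e-09 in edgeR, SE 0.09). SMED30002925 had 82.4, 79.8 and 96.2 CPM at 48 h, against 25.1, 26.0 and 26.5 CPM in intact worms. Its 6 h libraries, at 34.4 to 43.4 CPM, were nearer to the intact ones. SMED30010453 had 50.3, 47.5 and 39.4 CPM at 48 h, against 12.3, 14.8 and 15.8 CPM in intact worms. SMED30001802 had 27.0, 22.4 and 25.5 CPM at 48 h, against 11.4, 11.0 and 11.9 CPM in intact worms, and had already reached 23.3 to 25.4 CPM at 6 h.

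**Figure D2:**
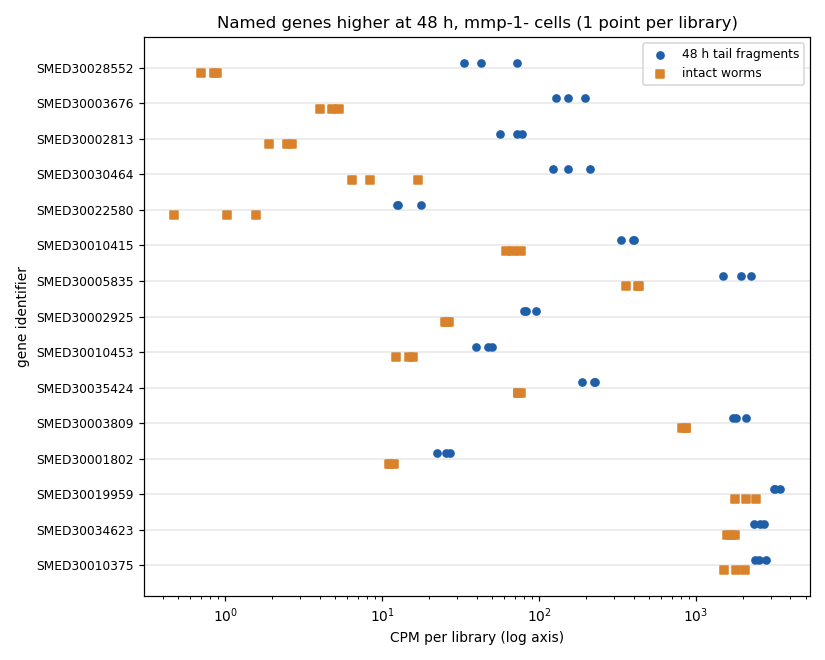
Level in CPM (log axis) of the 15 named genes that were higher at 48 h, 1 point per library, with 48 h mmp-1- libraries as blue circles and intact mmp-1- libraries as orange squares. In each gene the 3 circles lie above the 3 squares, with the widest gap in SMED30028552 (33.3 CPM or more at 48 h, 0.886 CPM or less in intact worms).

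Among the decreases, one set of genes was scarce at 48 h and abundant in intact worms. SMED30018686 had 12.2, 8.54 and 8.32 CPM at 48 h, against 1295, 754 and 1025 CPM in intact worms, with a log2 fold change of -6.72 (adjusted p 4.89e-08 in edgeR, SE 0.53). SMED30005177 had 4.45, 2.85 and 3.55 CPM at 48 h, against 798, 411 and 641 CPM in intact worms, and fell by 7.41 on the log2 scale. SMED30014784 had 4.36, 5.18 and 2.87 CPM at 48 h, against 640, 386 and 480 CPM in intact worms, and fell by 6.92. In all 3 genes the highest 48 h library was far below the lowest intact library, which was replicate 2. SMED30000113 had 0.237, 0.300 and 0.394 CPM at 48 h, against 158, 52.4 and 166 CPM in intact worms, with a log2 fold change of -8.64 (adjusted p 8.29e-08 in edgeR, SE 0.71). SMED30000295 had 1.23, 0.465 and 0.648 CPM at 48 h, against 255, 91.0 and 285 CPM in intact worms. SMED30034869 had 0.253, 0.15 and 0.183 CPM at 48 h, against 64.6, 39.7 and 47.9 CPM in intact worms. Again intact replicate 2 was the lowest of its group in each. That library had the highest summed level of the sort check genes among the 6, at 5376 CPM, and the part of this in the result was not tested. Without it the log2 fold change of SMED30000113 was -9.003.

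The 3 genes with the lowest fold changes were less secure in size. SMED30022886 had 0.0789, 0.0300 and 0.0141 CPM at 48 h, 8 counts in all, against 457, 84.3 and 9.81 CPM in intact worms. The intact libraries ranged widely, with replicate 1 highest. Its log2 fold change was -12.10 (adjusted p 0.000763 in edgeR, SE 2.27) and became -10.13 without intact replicate 1. SMED30020266 had 0.158, 0.270 and 0.0563 CPM at 48 h, against 173, 27.2 and 4.77 CPM in intact worms, with the same replicate highest. Its log2 fold change was -8.73 (adjusted p 0.00107 in edgeR) and became -6.63 without that library. SMED30024356 had 0.0474, 0.0600 and 0.0282 CPM at 48 h, 9 counts in all, against 7.63, 81.0 and 1.27 CPM in intact worms, with replicate 2 highest. Its log2 fold change was -9.32 (adjusted p 0.000342 in edgeR) and became -6.58 without intact replicate 2. None of these 3 was called by limma with voom (adjusted p 0.437, 0.225 and 0.384 in the order given).

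Among the genes named for their p-value, 3 had smaller decreases with little spread. SMED30034181 had 10.4, 11.1 and 11.2 CPM at 48 h, against 36.4, 32.5 and 34.7 CPM in intact worms, a log2 fold change of -1.67 (adjusted p 1.66e-10 in edgeR, SE 0.08). SMED30027886 had 11.0, 12.0 and 11.4 CPM at 48 h, against 41.3, 43.7 and 45.6 CPM in intact worms. Both were already low at 6 h, at 12.7 to 14.0 CPM and 11.4 to 15.2 CPM in the order given. SMED30020257 had 31.6, 32.9 and 28.2 CPM at 48 h, against 109, 119 and 103 CPM in intact worms, and stood between these values at 6 h, at 63.6 to 65.4 CPM. The intact libraries of SMED30022805 were less even. It had 2.64, 2.97 and 3.53 CPM at 48 h, against 33.1, 42.2 and 20.7 CPM in intact worms, and its 6 h libraries, at 31.0 to 39.4 CPM, overlapped the intact ones.

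The genes named for their decrease in CPM also included SMED30020726 and SMED30021545. SMED30020726 had 4238 ± 293 CPM at 48 h and 6666 ± 1356 CPM in intact worms (SD, n = 3 each), with a log2 fold change of -0.65 (adjusted p 0.00739 in edgeR, SE 0.16). SMED30021545 had 1528 ± 83.9 CPM at 48 h and 2366 ± 585 CPM in intact worms (SD, n = 3 each), with a log2 fold change of -0.63 (adjusted p 0.00175 in edgeR, SE 0.13).

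**Figure D3:**
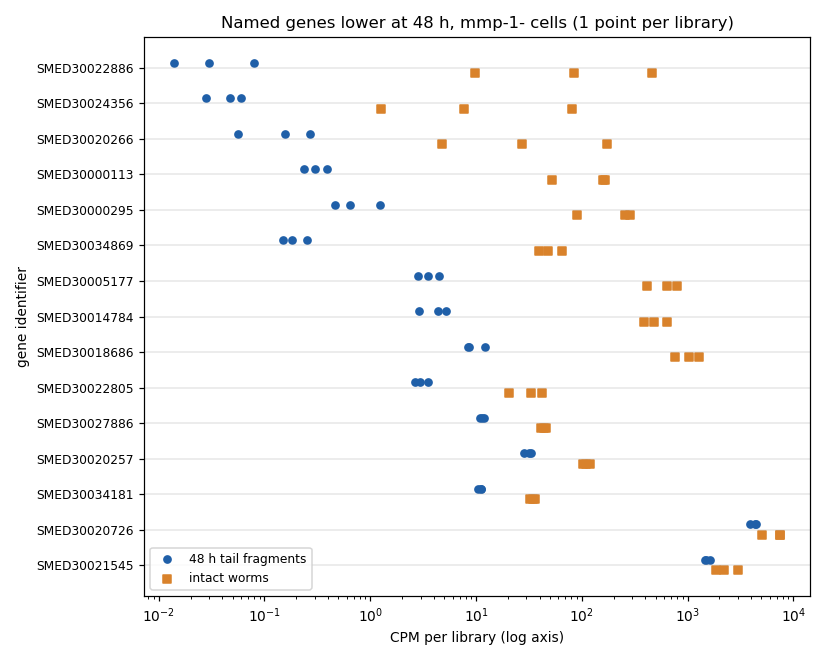
Level in CPM (log axis) of the 15 named genes that were lower at 48 h, 1 point per library, with 48 h mmp-1- libraries as blue circles and intact mmp-1- libraries as orange squares. The circles lie below the squares in each gene, and the intact libraries spread most in SMED30022886 (9.81 to 457 CPM) and SMED30024356 (1.27 to 81.0 CPM).

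Genes that were clearly present in one condition and scarce in the other were counted by level alone. They had at least 10 CPM in every library of one condition and under 1 CPM in every library of the other. By this limit 2 genes appeared at 48 h and 8 genes were lost. These words name the limit and not absence, since SMED30028552 had 169 counts over the intact libraries and the lost gene SMED30012509 had 130 at 48 h. The genes that appeared were SMED30028552 and SMED30007501. SMED30007501 had 32.3, 33.4 and 21.2 CPM at 48 h, against 0.190, 0.748 and 0.355 CPM in intact worms. Its log2 fold change of 6.09 became 6.74 without intact replicate 2. It had 12.4, 7.83 and 13.6 CPM at 6 h, between the other conditions. With limits of 2 and 10 CPM there were 5 such genes.

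The lost genes were SMED30000113, SMED30001879, SMED30001925, SMED30007780, SMED30012509, SMED30022221, SMED30028271 and SMED30034869, with log2 fold changes of -8.64 to -4.51. With limits of 1 and 20 CPM there were 5 lost genes, and with limits of 2 and 10 CPM there were 13. They split by their level at 6 h. In 6 of the 8 the mean at 6 h was still at least 10 CPM. SMED30001879, for example, had 0.631, 0.585 and 0.563 CPM at 48 h and 150, 54.6 and 160 CPM in intact worms, and 85.2, 38.8 and 36.5 CPM at 6 h. The other 2 were under 1 CPM on average at 6 h. SMED30007780 had 0.0474, 0.135 and 0.0986 CPM at 48 h, against 17.6, 20.7 and 14.7 CPM in intact worms, and 0.0909, 0.482 and 1.80 CPM at 6 h. SMED30001925 had 0.584, 0.960 and 0.296 CPM at 48 h, against 15.3, 12.7 and 13.9 CPM in intact worms, and 0.333, 0.440 and 1.57 CPM at 6 h.

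The mmp-1+ cells of the same conditions gave the same direction for most named genes. Of the 30, 29 were called in the same direction in mmp-1+ cells, where edgeR called 7.13% of tested genes higher and 10.6% lower. The exception was SMED30020726, with a log2 fold change of 0.11 in mmp-1+ cells (adjusted p 0.709 in edgeR), and its difference between populations was not called (log2 difference 0.77, edgeR adjusted p 0.579). The labels do not say whether same-numbered libraries of the populations came from the same worms, so the mmp-1+ values may not be independent of the mmp-1- values. SMED30028552 had a log2 fold change of 5.92 in mmp-1- cells and 5.66 in mmp-1+ cells, and SMED30003676 had 5.08 in both. Of the 369 genes raised at least 2-fold in mmp-1- cells, 191 were also raised at least 2-fold in mmp-1+ cells (51.8% of the mmp-1- list and 51.6% of the mmp-1+ list). Of the 1003 genes lowered at least 2-fold, 690 were lowered as much in mmp-1+ cells (68.8% of the mmp-1- list and 66.2% of the mmp-1+ list).

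A test of whether the change at 48 h differed between the populations (an interaction term in the same edgeR fit) called 55 genes, 0.175% of those tested, and 1322 had an unadjusted p under 0.05. This count was 105 with DESeq2, 32 with limma and voom, and 35 in edgeR when 48 h mmp-1+ replicate 2 was left out. Of the 55, 20 had changed by at least 2-fold in mmp-1- cells, 18 of them downward. The other 2 were SMED30034946, which rose by 1.00 on the log2 scale in mmp-1- cells and by 2.12 in mmp-1+ cells, and SMED30018825, which rose by 1.65 in mmp-1- cells and by 3.10 in mmp-1+ cells.

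The 18 genes include SMED30018686, SMED30005177, SMED30014784, SMED30000113, SMED30000295 and SMED30034869. Their log2 fold changes were -8.64 to -1.38 in mmp-1- cells, against -3.88 to 0.44 in mmp-1+ cells, where 15 of the 18 were also called lower. In SMED30018686 the 48 h mmp-1+ libraries had 124, 96.0 and 24.1 CPM and the intact mmp-1+ libraries 691, 583 and 491 CPM, so the log2 fold change was -2.86 in mmp-1+ cells against -6.72 in mmp-1- cells. The difference of 3.87 was called by edgeR (SE 0.61, adjusted p 0.00474). In 11 of the 18 the intact mmp-1- mean was at least 20 CPM. In all 11, every 48 h mmp-1+ library was above every 48 h mmp-1- library. The share of all tested genes with such a gap was not counted, and these libraries also entered the interaction that picked the genes. The 11 genes also varied together inside groups. Replicate 3 was the lowest of the 48 h mmp-1+ libraries, replicate 2 the lowest of the intact mmp-1- libraries and replicate 1 the highest of the 6 h mmp-1- libraries, each in all 11. These genes were selected by their difference, so the counts describe them and support nothing further.

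The 11 genes differed in the size of their measured decline, and these differences were not tested. Because gene length cancels when a ratio of a pair of genes is compared between libraries, each of the other 10 was set against SMED30018686. The ratio of SMED30005177 to it was 0.365, 0.334 and 0.426 in the 48 h mmp-1- libraries, 0.543, 0.620 and 0.557 at 6 h, and 0.616, 0.545 and 0.626 in intact worms. The ratio of SMED30034869 to it was 0.0207, 0.0176 and 0.0220 at 48 h, 0.0521, 0.0566 and 0.0553 at 6 h, and 0.0499, 0.0526 and 0.0467 in intact worms. In 7 of the 10 the ratio in every 48 h library was below that in every intact library. All but SMED30013562 (log2 fold change -6.36) had fallen more than SMED30018686 (-6.72), so lower ratios follow in part from the choice of reference. Some 48 h counts were low, with 39 over the 48 h mmp-1- libraries in SMED30034869. In mmp-1+ cells 6 of the 10 ratios were likewise below the intact values in every 48 h library. The ratio of SMED30015515 was 0.109, 0.188 and 0.109 in the 48 h mmp-1+ libraries, against 0.262, 0.279 and 0.321 in the intact mmp-1+ libraries. That of SMED30034869 was 0.0505, 0.0434 and 0.0583 in the 48 h mmp-1+ libraries, which overlapped the intact mmp-1+ values of 0.0438 to 0.0544.

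**Figure D4:**
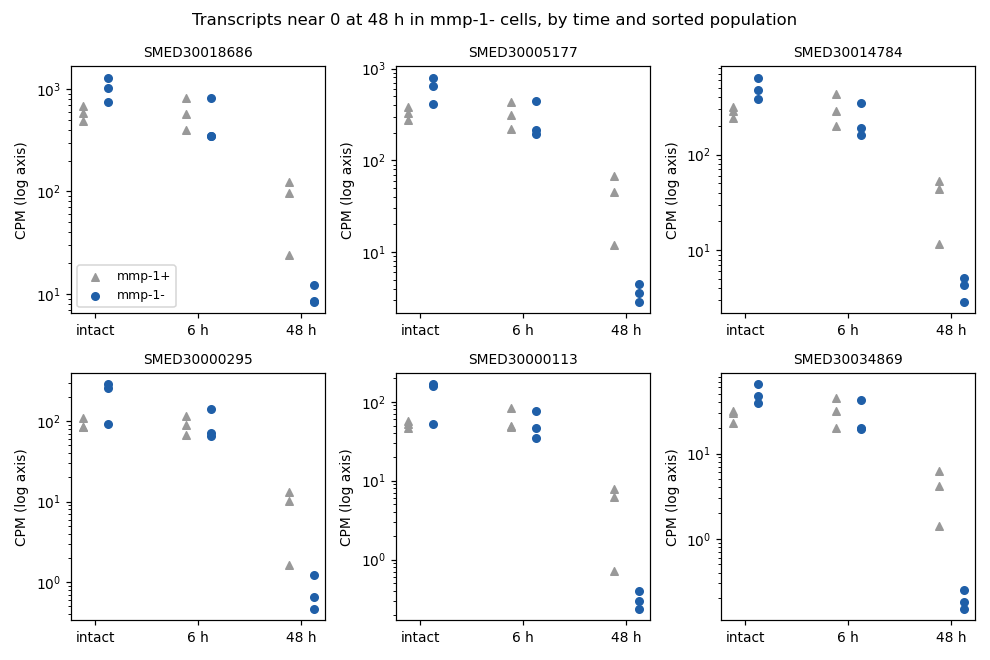
Level in CPM (log axis) of SMED30018686, SMED30005177, SMED30014784, SMED30000295, SMED30000113 and SMED30034869 over the order intact, 6 h, 48 h, 1 point per library, with the mmp-1+ and mmp-1- populations marked separately. At 48 h the mmp-1- libraries lie below the mmp-1+ libraries in each gene, for example 8.32 to 12.2 CPM against 24.1 to 124 CPM in SMED30018686. The genes shown are among those called by the interaction, which uses these same libraries, so this gap describes the choice.

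The tissue sections gave a view of the same genes in other animals. Slide-seqV2 captures the RNA of a section on barcoded beads of known position and counts unique molecular identifiers (UMIs). Each time point is 1 frozen block in which tail fragments surround an intact animal, cut into 2 adjacent sections, so there is no biological replicate and no test between time points. There are no sections of intact worms alone. Sections at 48 h are therefore set beside sections at 6 h, and levels are scaled to a total of 1000000 UMIs (UMI CPM) over beads with at least 50 UMIs. Intervals are 95% exact Poisson intervals and cover counting error only.

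The 8 lost genes together had 37.3 (34.7 to 40.0) and 77.6 (73.6 to 81.7) UMI CPM in the 48 h sections, against 230 (221 to 239) and 240 (232 to 249) in the 6 h sections. Each of the 8 was lower in both 48 h sections than in both 6 h sections. Over all 11223 genes with at least 200 UMIs this share was 14.9%. The lost genes SMED30001925, SMED30007780 and SMED30012509 had fewer than 200 UMIs over the sections and are not among these. SMED30001925 and SMED30007780 had at most 15 UMIs in any section, and their intervals overlapped between the time points in some pairs of sections. The interval of 6 h section 1 lay above both 48 h intervals in SMED30001925. In SMED30007780 it lay above that of 48 h section 1 only. Both were already under 1 CPM on average in the mmp-1- cells of 6 h tails. SMED30018686 had 108 and 268 UMI CPM at 48 h, against 649 and 704 at 6 h. SMED30022886 had 0.238 and 0.270 UMI CPM at 48 h, 5 UMIs in each section, against 9.29 and 30.5 at 6 h. The genes that appeared went opposite ways. SMED30007501 had 23.7 and 11.7 UMI CPM at 48 h, against 6.10 and 4.94 at 6 h, whereas SMED30028552 had 9.37 and 13.6 at 48 h, against 15.96 and 26.92 at 6 h.

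Of the 15 named genes that rose in sorted cells, 8 were higher in both 48 h sections than in both 6 h sections, 4 were lower in both and 3 overlapped. The widest gap was in SMED30030464, with 127 and 238 UMI CPM at 48 h, against 5.54 and 6.42 at 6 h. Of the 15 named genes that fell, 10 were lower in both 48 h sections, 3 were higher in both and 2 overlapped. The named gene SMED30010453 had fewer than 200 UMIs over the sections. Among 11223 genes with at least 200 UMIs, 51.9% were higher in both 48 h sections and 14.9% lower in both. Of the genes lowered at least 2-fold in sorted cells, 255 had that many UMIs, and 124 of these (48.6%) were lower in both 48 h sections while 50 (19.6%) were higher. Of the genes raised at least 2-fold, 91 had that many UMIs, and 62 of these (68.1%) were higher in both while 10 (11.0%) were lower. The sections hold all cell types and an intact animal, and the sorted comparison was with intact worms rather than with 6 h tails.

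The UMIs of the 18 genes that fell more in mmp-1- cells were spread unevenly over beads. Their summed level was 339 and 726 UMI CPM in the 48 h sections, against 1924 and 2029 in the 6 h sections. Most of it came from SMED30018686, SMED30005177 and SMED30014784. In the order given they had 107.8, 47.34 and 86.45 UMI CPM in section 1 at 48 h, and 268.3, 101.7 and 175.5 in section 2. At 6 h they had 648.7, 273.8 and 540.1 in section 1, and 704.3, 303.1 and 577.9 in section 2. The shares below thus describe mainly these genes, and whether the others lie in the same places was not tested. At least 1 of these UMIs was on 6.36% and 7.29% of beads at 48 h, against 16.2% and 17.2% at 6 h. The 10 richest beads held 32.3% and 22.9% of these UMIs at 48 h, against 17.9% and 12.4% at 6 h. For all UMIs, the 10 richest beads held 0.552% and 0.715% at 48 h, against 0.683% and 0.5% at 6 h. Of their UMIs, 82.8% and 91.2% lay on tissue beads at 48 h, against 74.5% and 74.1% at 6 h. Of all UMIs, 92.7% and 93.9% lay on tissue beads at 48 h, against 88.2% and 87.5% at 6 h. In each of the 4 sections the 18 genes were thus found off tissue more than the total was, and the part of this in their levels was not tested. Tissue beads that lay close together were joined into pieces, of which there were 13 and 12 at 48 h and 9 and 11 at 6 h. The piece nearest the centre of each map held 18.5% and 56.1% of the 18 genes' tissue UMIs at 48 h, against 11.5% and 3.46% at 6 h. The central piece had 242 and 976 beads at 48 h, against 848 and 1026 at 6 h, so it need not be the same part of the tissue in each section. It held 1.52% and 7.09% of all tissue UMIs at 48 h, against 10.2% and 6.47% at 6 h. The sections of a block differed. At least 10% of the 18 genes' tissue UMIs was in each of 5 pieces in section 1 and 3 in section 2 at 48 h, against 3 and 5 at 6 h. The richest piece held 18.9% and 56.1% at 48 h, against 43.3% and 32.9% at 6 h. The labels do not say which piece is the intact animal, and the central piece was picked after the maps had been seen.

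**Figure D5:**
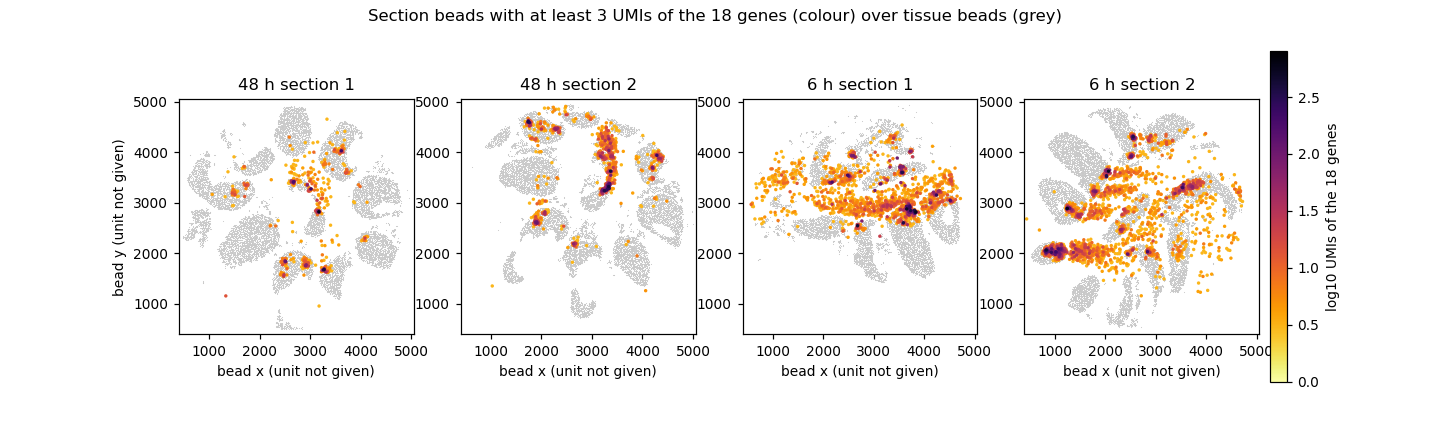
Positions of tissue beads (grey) and of beads, on or off tissue, with at least 3 UMIs of the 18 genes (coloured by log10 UMIs) in the 2 sections at 48 h and the 2 at 6 h, with both axes in the deposited position units. At 6 h the coloured beads form bands that run past the tissue, where 74.5% and 74.1% of these UMIs are on tissue beads. At 48 h the central piece holds 18.5% of the tissue UMIs of these genes in section 1 and 56.1% in section 2, against 11.5% and 3.46% at 6 h. In section 1 at 48 h another piece holds more, 18.9%. Most UMIs of the 18 genes come from SMED30018686, SMED30005177 and SMED30014784. The central piece was picked after the maps had been seen.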

How the data were processed

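For the sorted cells the authors deposited raw read counts per gene identifier (36035 identifiers), not normalized. The submitters' processing notes name STAR 2.7.3a, RSEM and bcl2fastq 2.20 without saying what each was used for. The sources used here do not state the reference, its build or the counting options. Per the labels, cDNA was amplified with 10 PCR cycles and the non-stranded libraries with 12, with no molecular identifiers stated, so reads are not independent molecules. Because strand was not kept, overlapping and antisense genes cannot be told apart, and genes with near-identical copies are uncertain. Reads listed as unmapped (15.2% to 15.8% at 48 h, 14.3% to 16.1% in intact libraries) or multimapping (5.67% to 5.81%, and 6.05% to 6.19%) took no part in library sizes or tests. For the sections the deposited files hold UMI counts per gene and bead, and separate deposited tables hold bead positions in an unstated unit. 2 single-cell samples were not analysed here.

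The counts were tested in edgeR 4.0.16 (R 4.3.3). There filterByExpr left 31435 genes, TMM scaled the libraries, and a quasi-likelihood model with a mean for each of 6 groups was fitted to all 18 sorted-cell libraries (common biological coefficient of variation 0.152). A gene was called where its adjusted p (Benjamini-Hochberg) was under 0.05. The SE is the absolute log2 fold change divided by the square root of F. The script was tested on simulated data. Named genes were called, had no overlap of libraries and were (1) the 6 highest and 6 lowest log2 fold changes at an average log2 CPM of at least 4, (2) the 5 largest increases and decreases of mean CPM, and (3) the 4 smallest further p-values per direction at that same average. The labels call the replicates biological, and no library pair was within counting noise. The members and lists were chosen with earlier results of these data known. Gene lists by name could not be matched.

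In the sections, tissue beads had at least 50 UMIs and a mean UMI count over the 20 nearest beads above an Otsu limit on log values. Pieces are tissue beads linked within 50 position units, with at least 100 beads. Sections were handled in Python 3.11.15 with numpy 2.4.6 and scipy 1.17.1. Alternatives were DESeq2 1.42.0, limma 3.58.1 with voom, other scalings, no filter, only the groups compared, a replicate block, each library left out, other CPM limits and other bead filters.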

Additional observations from a re-analysis of the deposited data

Results flagged for a closer look

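For 9 genes the change at 48 h differed between mmp-1+ and mmp-1- cells by the interaction test in edgeR. The log2 difference, mmp-1+ minus mmp-1-, was 5.26 in SMED30000113 (edgeR adjusted p 0.00551), 5.18 in SMED30034869 (adjusted p 0.00159), 4.78 in SMED30028271 (adjusted p 0.00175) and 4.61 in SMED30000295 (adjusted p 0.00746). By the same edgeR test it was 4.43 in SMED30005177 (adjusted p 0.00217), 4.28 in SMED30001879 (adjusted p 0.0142), 4.17 in SMED30022221 (adjusted p 0.00396), 3.97 in SMED30014784 (adjusted p 0.00253) and 3.87 in SMED30018686 (adjusted p 0.00474).

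These genes were named or counted by their decrease in mmp-1- cells, so the differences describe genes picked at one end. All 9 were also called lower at 48 h in mmp-1+ cells. Replicate 3 of the 48 h mmp-1+ group was the lowest of its group in each, for example 0.721 CPM in SMED30000113 against 7.95 and 6.27 CPM in the other libraries of that group. The calls of the 9 genes held without that library in edgeR. Limma with voom called 3 of the 9 (SMED30018686, SMED30005177 and SMED30014784) and gave an adjusted p of 0.309 to 0.874 for the other 6. SMED30001879 was also not called by edgeR in 4 fits that left out another library (adjusted p 0.0581 to 0.0627).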

How the results depend on the processing

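The log2 fold changes of 37 genes (the named, appeared and lost ones) were recomputed under 13 alternatives each, 481 values in all. None changed sign and 476 kept their call. The exceptions were SMED30022886, SMED30020266 and SMED30024356 under limma with voom, and SMED30010375 without each of 2 libraries, as given above. The 9 interactions had 20 alternatives each, and 10 of 180 values were not called. In 6 genes this was under limma with voom: SMED30000113 (adjusted p 0.874), SMED30001879 (0.749), SMED30000295 (0.426), SMED30022221 (0.363), SMED30028271 (0.313) and SMED30034869 (0.309). SMED30001879 also missed in edgeR without each 48 h mmp-1- library (adjusted p 0.0593, 0.0582 and 0.0627) and without 48 h mmp-1+ replicate 2 (0.0581).

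The count of called genes was 3797 to 5925 over the alternatives, of which 3730 to 5473 were shared with the 5528. Leaving out 1 library gave 4220 to 5121 called genes, 1759 to 2317 higher and 2461 to 3044 lower, 310 to 396 raised and 910 to 1015 lowered at least 2-fold. Fitting only the groups compared gave 1436 higher genes. The interaction count was 105 with DESeq2, 32 with limma and voom, and 35 to 66 with 1 library left out. Limits of 2 and 10 CPM gave 5 appeared and 13 lost genes, and limits of 1 and 20 CPM gave 5 lost genes. The cause of these differences was not tested, and the smaller fits also had fewer samples. Scaling by total counts moved the median log2 fold change of all genes to 0.04 and gave 49.6% of calls higher, against 44% with TMM. In the sections, the log2 ratio of 48 h over 6 h was -2.05 to -1.88 for the lost genes and 0.11 to 0.17 for the appeared genes over the bead filters, of which the tissue filter was chosen after seeing the data.

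Same-numbered 48 h and intact libraries shared only a number: their deviations from the group means correlated at -0.199, 0.146 and 0.147, and 1 of the 3 48 h libraries correlated best with its own number. With a replicate block 5439 genes were called, 5277 of them shared. Same-numbered mmp-1+ and mmp-1- libraries of a condition correlated at -0.028 to 0.615 over 9 pairs, against 0.186 at most for pairs with unlike numbers. The same-numbered pairs correlated at 0.245, 0.123 and 0.366 at 48 h, at 0.521, 0.615 and 0.129 at 6 h, and at -0.028, 0.1 and 0.219 in intact worms. At 48 h all pairs with unlike numbers were negative. Deviations from a mean of 3 libraries cancel within a group, so positive same-numbered values push the others down. The negative values are therefore no separate evidence of pairing. The populations may thus be paired by number, which the labels do not state and the main interaction test did not model. With the 9 same-numbered pairs as a replicate block, an alternative chosen after seeing the data, the interaction was called for 64 genes, and the 9 genes kept their calls. The groups have 3 libraries each, and reads are not single molecules, so depth alone does not set the precision. The low counts of genes under 1 CPM at 48 h limit the size of their fold changes.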
